A study of Mus musculus with 45 samples.

Results

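The 6 genes described here belong to cytochrome P450 family 4, the Cyp4 fatty acid and eicosanoid hydroxylases. They are Cyp4a10, Cyp4b1, Cyp4f13, Cyp4f14, Cyp4f16 and Cyp4v3, taken by their identifiers from tables of 47729 genes. The members were chosen with the comparison of the diets already known, so their differences between the diets are given below as a description, with no test. Bulk RNA-seq was made from tuft cells (EpCAM+CD45+ Siglec-F+) that were sorted by FACS from the small intestine of male C57BL/6J mice, 1 library per mouse. The mice lived at thermoneutrality and received a reference diet (RFD, 10% fat) or a high fat diet (HFD, 60% fat). The 45 libraries fall into a set labelled STF, with 11 libraries on RFD and 11 on HFD, and a set labelled LTF, with 11 on RFD and 12 on HFD. According to the labels both sets were fed for 9 weeks, whereas the study fed mice for 9 or 22 weeks, and the LTF set is called the 22-week set here. Feeding time, age of the mice and library set cannot be told apart.

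CYP4 enzymes are monooxygenases of the endoplasmic reticulum that place a hydroxyl group at or near the methyl end of a fatty acid. Alcohol and aldehyde dehydrogenases then make dicarboxylic acids, which peroxisomes shorten. Enzymes of the Cyp4a group act on medium and long fatty acids and are textbook targets of the fatty acid sensor PPAR alpha, those of the Cyp4f group also inactivate leukotriene B4 and related eicosanoids, and Cyp4v3 is the mouse counterpart of CYP4V2. In the gut, tuft cells make leukotrienes and prostaglandins, whereas absorptive enterocytes take up and oxidise dietary fat.

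The members lie on 3 chromosomes (GRCm38, GENCODE M21). Cyp4a10 (ENSMUSG00000066072; chr4:115518264-115533649, plus strand, 13 exons) and Cyp4b1 (ENSMUSG00000028713; chr4:115624725-115647723, minus strand, 12 exons) stand in the Cyp4 cluster of chromosome 4. Cyp4f16 (ENSMUSG00000048440; chr17:32536558-32551798, plus strand, 13 exons), Cyp4f14 (ENSMUSG00000024292; chr17:32905070-32917342, minus strand, 12 exons) and Cyp4f13 (ENSMUSG00000024055; chr17:32924688-32947402, minus strand, 13 exons) stand in the cluster of chromosome 17. Cyp4f13 and Cyp4f14 are neighbours on the same strand, 7.3 kb apart, while Cyp4f16 lies on the opposite strand, with Cyp4f37, Cyp4f40 and Cyp4f15 between it and Cyp4f14. Cyp4v3 (ENSMUSG00000079057; chr8:45304944-45333216, minus strand, 11 exons) stands apart from both clusters.

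The bases before the start of the 3 Cyp4f members are shown (250 for Cyp4f16 and Cyp4f14, and for Cyp4f13 the 209 of these that lie outside the longer gene of GENCODE) because these genes of 1 cluster did not move alike between the diets. The sequences are those of RefSeq on GRCm38.p6, each in the direction of its gene and 5′ to 3′, with the letters ATTGG in capitals where they occur. They are the reverse strand of CCAAT.
Cyp4f16, chr17:32536307-32536556, plus strand: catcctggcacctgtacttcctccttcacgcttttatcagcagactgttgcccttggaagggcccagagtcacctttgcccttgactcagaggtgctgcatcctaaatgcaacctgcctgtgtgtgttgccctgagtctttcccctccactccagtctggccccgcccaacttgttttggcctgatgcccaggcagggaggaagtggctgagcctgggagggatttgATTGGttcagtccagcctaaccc
Cyp4f14, chr17:32917343-32917592, minus strand: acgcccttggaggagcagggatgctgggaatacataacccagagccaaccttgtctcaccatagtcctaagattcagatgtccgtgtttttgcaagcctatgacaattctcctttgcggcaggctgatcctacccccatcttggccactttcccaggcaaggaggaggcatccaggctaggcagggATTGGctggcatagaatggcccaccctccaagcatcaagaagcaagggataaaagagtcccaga
Cyp4f13, chr17:32947403-32947611, minus strand: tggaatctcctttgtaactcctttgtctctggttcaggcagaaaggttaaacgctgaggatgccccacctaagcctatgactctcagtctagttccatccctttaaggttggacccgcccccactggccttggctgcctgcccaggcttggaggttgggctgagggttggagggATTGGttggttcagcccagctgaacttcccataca

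Each of the 3 windows held 1 CCAAT on the reverse strand, at 23 to 19 bases before the RefSeq start in Cyp4f16, 64 to 60 in Cyp4f14 and 76 to 72 in Cyp4f13. CCAAT was chosen after the windows were seen, and on either strand it was present in 33.85% of the 32851 windows of this length. The windows of 5 members were searched on both strands for AGGTCA, bound by many nuclear receptors, AGGTCANAGGTCA (the direct repeat known for PPAR, which holds AGGTCA at both ends), CAAAGTCCA, known for HNF4, and TATAAA, the TATA box. None of these letters occurred in the windows of Cyp4b1, Cyp4f13, Cyp4f14, Cyp4f16 or Cyp4v3, and they occurred in 14.0%, 0.033%, 0.384% and 12.4% of all windows. G and C made up 56.8% of the window of Cyp4f16, 53.2% of that of Cyp4f14 and 52.8% of that of Cyp4f13, against a median of 52.4% over all windows.

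Each library held between 189340 and 4690213 reads, and 2 libraries of the 9-week set had fewer than 500000 reads (RFD mouse 40 and HFD mouse 50). Levels are given as read counts scaled to library size (CPM) after TMM normalization, or as transcript abundance scaled by length and library (TPM) where genes are compared with each other. Tuft cell identity was checked with 14 markers, all of which passed the filter of more than 5 reads in at least 6 libraries. Dclk1 ranged from 33.8 to 2955 CPM, and the summed tuft markers ranged from 268 to 19690 CPM, with the lowest value on HFD after 9 weeks. Markers of enterocytes were also present, with all 16 at a summed level from 2470 to 30310 CPM, and the median was 6737 on RFD and 5018 on HFD after 9 weeks and 12510 and 11820 after 22 weeks. Markers of other cells differed between the diets as well. The 6 Paneth cell markers had a median sum of 2732 CPM on RFD and 28200 CPM on HFD after 9 weeks and of 1444 and 10980 CPM after 22 weeks, with none called and up to 593500 CPM in 1 library. Olfm4, of crypt base cells, was called higher on HFD after 9 weeks (log2 fold change 2.05, adjusted p = 0.0848, edgeR). After 22 weeks 3 of 7 enteroendocrine markers (Cck, Gcg and Nts) were called lower, against 0.357% of all genes. The part of these cells in the members' differences was not tested. In bulk libraries, fewer cells of a type and less RNA per cell cannot be told apart. The library of 22-week RFD mouse 3 stood apart, with the highest Cyp4f14 and Cyp4b1 of all libraries, the highest enterocyte score of its group and the lowest level of PPAR alpha targets.

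Reads were detected for all 6 members, and all 6 passed the filter. Cyp4a10 passed it through HFD libraries, since 1 RFD library had more than 5 reads. Of the 21 other Cyp4 genes, pseudogenes and antisense transcripts included, 5 had no read, and 13 had reads, at most 42 over all libraries, but did not pass the filter. The other 3, Cyp4f40, Cyp4f18 and Cyp4x1, passed it. Near-identical copies can share reads. Of the 100-base words in the longest coding transcript, Cyp4a10 shared 12.74% with other genes, mainly Cyp4a32 and Cyp4a31, and Cyp4f16 shared 9.8%, mainly with Cyp4f37. Cyp4b1 shared 4.46% with its 2 pseudogenes and Cyp4v3 shared 5.77% with Gm45753, while Cyp4f13 and Cyp4f14 shared none. The copies held few reads, 21 for Cyp4a32, 17 for Cyp4a31 and 37.1 for Cyp4f37 in all 45 libraries. Counts that were not whole occurred in 3 libraries and for 1 member, Cyp4f16.

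Cyp4a10, the omega-hydroxylase of the Cyp4a group, was nearly silent in tuft cell libraries on RFD and present in nearly all libraries on HFD. After 9 weeks, the 11 RFD libraries held 12 reads of Cyp4a10 in all and the 11 HFD libraries held 619. On RFD, 7 libraries had no read and the other 4 had 1, 2, 3 and 6 reads. On HFD the level was lowest in mouse 64, which had no read, followed by mouse 70 with 7.055 CPM and mouse 7 with 15.2 CPM. The median on HFD was 25.4 CPM and the highest value was 73.3 CPM in mouse 6. Thus 10 of 11 HFD libraries lay above the highest RFD value of 3.79 CPM.

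After 22 weeks the same pattern was seen, with 10 reads of Cyp4a10 over 11 RFD libraries and 1113 reads over 12 HFD libraries. No RFD library had more than 3 reads, and 7 had none. On HFD, mouse 50 had no read, the next lowest value was 16.1 CPM in mouse 80, the median was 45.6 CPM and the highest value was 83.3 CPM in mouse 70. Hence 11 of 12 HFD libraries lay above every RFD library, whose highest value was 2.30 CPM. The fitted log2 fold change of HFD against RFD was 5.54 (SE 0.81) after 9 weeks and 6.25 (SE 0.70) after 22 weeks. With each RFD library raised to 3 reads, the mean on HFD was 8.24-fold and 21.99-fold that on RFD. The HFD libraries without a read, mouse 64 after 9 weeks and mouse 50 after 22 weeks, were not shallow, with 2013749 and 2881857 reads. Each had the highest Dclk1 level (2575 and 2955 CPM), the highest tuft score and the lowest level of PPAR alpha targets of its group. The enterocyte score of mouse 64 was the lowest of its group and that of mouse 50 the second lowest, and the part of these markers in the missing reads was not tested.

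Its relatives of the Cyp4a group were not detected at such levels. Cyp4a14, a neighbour of Cyp4a10 22.1 kb away with a related enzyme activity, had 11 reads on RFD and 3 on HFD after 9 weeks and 10 on each diet after 22 weeks. Cyp4a12a and Cyp4a12b, hydroxylases of arachidonic acid, had 4 and 7 reads over all libraries. The 21 reads of Cyp4a32 were all in HFD libraries, 12 after 9 weeks and 9 after 22 weeks, whereas 13 of the 17 reads of Cyp4a31 were in a single 9-week RFD library. These genes did not pass the filter, and no difference between the diets was tested for them.

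**Figure D1:**
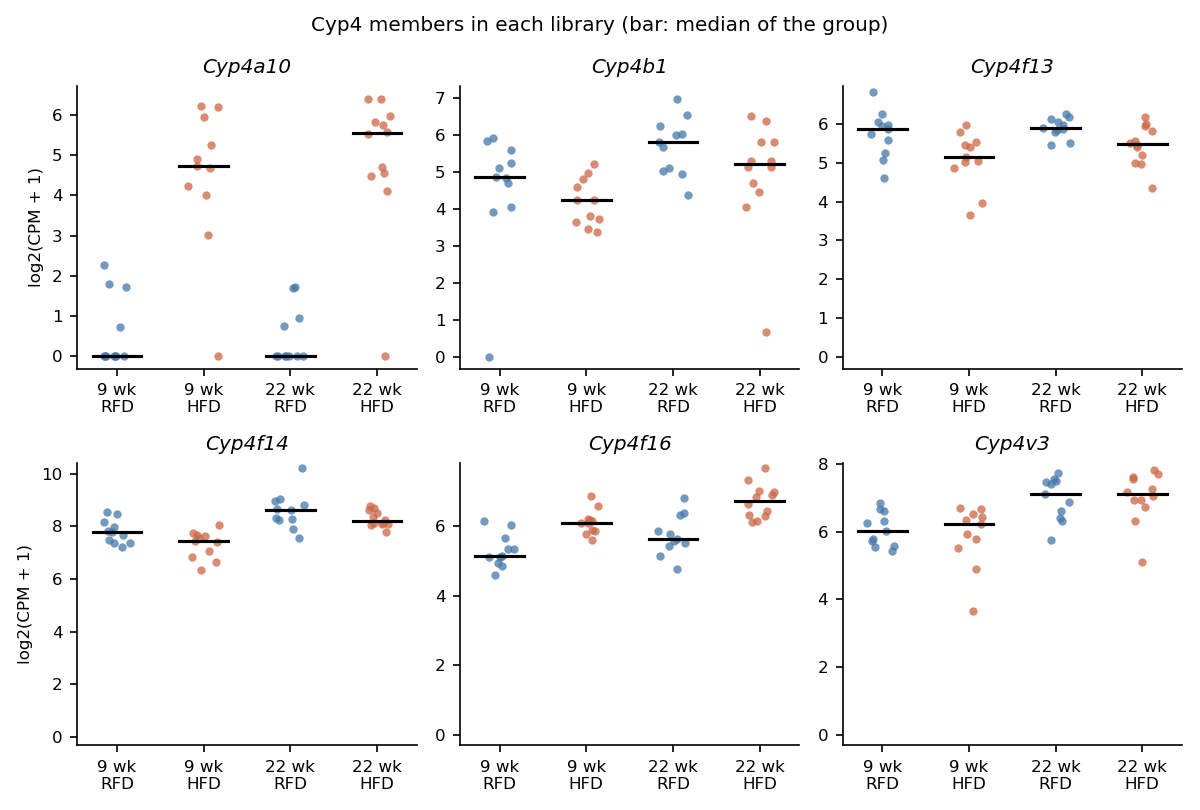
Level of each member in each of the 45 libraries as log2(CPM + 1), grouped by set and diet, with a bar at the median of the group. Cyp4a10 is at or near 0 on RFD and in 1 HFD library of each set, Cyp4f16 lies higher on HFD, and Cyp4f14, Cyp4b1 and Cyp4v3 lie higher in the 22-week set.

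Cyp4f16 was the second member that was higher on HFD. After 9 weeks it ranged from 22.98 to 70.02 CPM on RFD (median 34.1) and from 47.3 to 116 CPM on HFD (median 67.5). All 11 HFD libraries lay above the RFD median, and 5 lay above every RFD library. After 22 weeks it ranged from 26.4 to 110.5 CPM on RFD (median 49.05) and from 68.0 to 204 CPM on HFD (median 106). All 12 HFD libraries lay above the RFD median and 6 above every RFD library, so the groups overlapped at both times. The log2 fold change was 0.89 (SE 0.21) after 9 weeks and 0.96 (SE 0.23) after 22 weeks, or 1.85-fold and 1.95-fold.

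Cyp4f14, known as a leukotriene B4 hydroxylase, was the most abundant member and leaned the other way. After 9 weeks it ranged from 148 to 372 CPM on RFD (median 218) and from 81.15 to 263 CPM on HFD (median 172). On HFD, 10 of 11 libraries lay below the RFD median and 4 lay below every RFD library. After 22 weeks it ranged from 187 to 1202 CPM on RFD (median 396) and from 220.0 to 432 CPM on HFD (median 291), with 10 of 12 HFD libraries below the RFD median. The log2 fold change was -0.45 (SE 0.21) after 9 weeks and -0.48 (SE 0.22) after 22 weeks. The highest RFD value, 1202 CPM, was that of 22-week mouse 3, and without this library the 22-week value was -0.23.

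Cyp4f13, which lies next to Cyp4f14, was also lower on HFD in most mice. It ranged from 23.3 to 112 CPM on RFD (median 57.6) and from 11.6 to 62.2 CPM on HFD (median 34.4) after 9 weeks, and 10 of 11 HFD libraries lay below the RFD median. After 22 weeks the range was 42.6 to 75.2 CPM on RFD (median 59.1) and 19.5 to 71.5 CPM on HFD (median 43.8). Here 9 of 12 HFD libraries lay below the RFD median and 5 below every RFD library. The log2 fold change was -0.64 (SE 0.26) and -0.42 (SE 0.20). The tuft markers leaned the same way, with 13 of 14 fitted lower on HFD in each set, a median log2 fold change of -0.95 after 9 weeks and -0.37 after 22 weeks, and none called. With the tuft score as a covariate the values of Cyp4f13 were -0.35 and -0.34, and the part of the tuft markers in this difference was not tested further.

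The opposite lean of the Cyp4f members is also given as ratios within libraries, which restate the differences between the diets given above. The ratio of Cyp4f16 to Cyp4f14 in TPM had a median of 0.205 on RFD (range 0.121 to 0.509) and 0.499 on HFD (range 0.279 to 0.833) after 9 weeks. After 22 weeks the median was 0.183 on RFD (range 0.102 to 0.226) and 0.398 on HFD (range 0.155 to 0.650). In contrast, the ratio of Cyp4f13 to Cyp4f14 had medians of 0.346 and 0.292 after 9 weeks and of 0.203 and 0.193 after 22 weeks, on RFD and HFD respectively.

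Cyp4f40, which lies between these genes and is not a member, leaned with Cyp4f16. Its mean after 9 weeks was 20.9 ± 13.1 CPM in RFD libraries against 35.4 ± 19.25 CPM in HFD libraries (SD, n = 11 each), and the difference did not pass the threshold (log2 fold change 0.74, SE 0.40, adjusted p = 0.332, edgeR). The 22-week means were 17.9 ± 14.5 CPM (RFD, n = 11) and 41.99 ± 17.5 CPM (HFD, n = 12), a difference of 1.22 on the log2 scale (SE 0.43, adjusted p = 0.271, edgeR), and 12 of 12 HFD libraries lay above the RFD median. Cyp4f18, the leukotriene hydroxylase of neutrophils, had reads in 16 of the 45 libraries and its adjusted p was 0.878 and 0.549 (edgeR). Cyp4x1 was no higher than 31.1 CPM in any library, with adjusted p of 0.576 and 0.927 (edgeR), and it overlaps an antisense transcript, Cyp4x1os, that held 13 reads.

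Cyp4b1, an enzyme best known from lung, where it also activates plant toxins, was lower on HFD in most mice but variable. After 9 weeks it ranged from 0 to 59.3 CPM on RFD (median 28.4) and from 9.41 to 36.6 CPM on HFD (median 18.1). The value of 0 was that of RFD mouse 40, the library with the fewest reads. After 22 weeks it ranged from 20.05 to 125 CPM on RFD (median 55.5) and from 0.620 to 90.9 CPM on HFD (median 36.45). On HFD, 9 of 11 libraries and 8 of 12 lay below the RFD median, the diets overlapped in both sets, and the log2 fold change was -0.74 (SE 0.34) and -0.51 (SE 0.38). With the enterocyte score as a covariate the value was -0.39 after 9 weeks and -0.52 after 22 weeks.

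Cyp4v3, whose human counterpart CYP4V2 hydroxylates medium and polyunsaturated fatty acids, differed little between the diets. After 9 weeks it ranged from 42.5 to 115 CPM on RFD (median 63.3) and from 11.5 to 104 CPM on HFD (median 73.75). After 22 weeks it ranged from 53.5 to 212 CPM on RFD (median 138) and from 33.5 to 227 CPM on HFD (median 137.5). The HFD libraries were divided evenly about the RFD median, 6 of 11 above it after 9 weeks and 6 of 12 after 22 weeks. The log2 fold change was -0.05 (SE 0.28) and 0.06 (SE 0.25), and the 9-week value was -0.30 with the tuft score and 0.21 with the enterocyte score as a covariate.

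**Figure D2:**
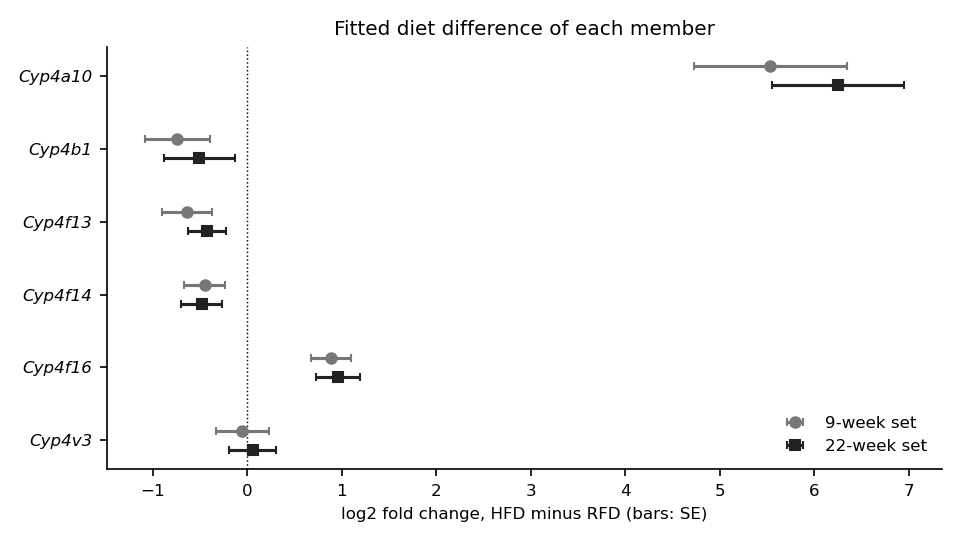
Fitted log2 fold change of HFD against RFD for each member in the 9-week set (circles) and the 22-week set (squares), with bars for the SE. Cyp4a10 stands at 5.54 and 6.25 and Cyp4f16 at 0.89 and 0.96, Cyp4b1, Cyp4f13 and Cyp4f14 lie below 0 in both sets, and Cyp4v3 lies at -0.05 and 0.06.

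The values above come from a fit for each set. In a single fit over all libraries, the term for the change of the diet effect between the sets was smaller than its SE for all 6 members, from 0.01 (SE 0.31) for Cyp4f14 to 0.73 (SE 1.16) for Cyp4a10 on the log2 scale. No member separated the diets in full. Over all 14020 genes tested, 1 gene did so after 9 weeks (0.00713%) and 2 did so after 22 weeks (0.0143%).

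The numbers of 43 mice fall into 3 series, a first from 1 to 8, a second of multiples of 10 and a further one of remaining numbers between 21 and 64 (2 mice outside them are left out here), and differences of mean log2(CPM + 1) between the diets were computed within each. For Cyp4a10 they were 4.19, 3.95 and 2.98 after 9 weeks and 4.98, 3.18 and 5.03 after 22 weeks. For Cyp4f16 they were 1.30, 0.47 and 0.84, and then 1.00, 1.10 and 1.02. Both members were higher on HFD in each series, which describes the same libraries as above and is no separate support. Cyp4f14 and Cyp4f13 were lower in each series, from -0.62 to -0.33 and from -1.06 to -0.09 after 9 weeks and from -0.50 to -0.06 and from -0.59 to -0.29 after 22 weeks. Cyp4b1 was not, with -0.32, 0.83 and -1.19 after 9 weeks and -0.77, -1.47 and -0.33 after 22 weeks. Cyp4v3 had 0.05, 0.47 and -1.14, and then 0.18, -0.48 and 0.15.

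Which members prevailed in these libraries was compared per length, with paired exact sign-flip permutation tests of log2(TPM + 1), two-sided and adjusted over 60 pairs (15 pairs in each of 4 groups). The libraries also held markers of cells other than tuft cells. The order is therefore that of the libraries, and the cell type behind it was not tested. Of the 60 pairs, 49 had an adjusted p under 0.1. Pairs with Cyp4a10 are counted among these and enter the adjustment. Cyp4a10 passed the filter through HFD libraries and was chosen with the comparison of the diets known. Its place and the count of 49 are therefore given as a description, with no conclusion drawn from them. On RFD after 9 weeks Cyp4f14 led with 87.1 ± 40.9 TPM, followed by Cyp4f13 with 30.97 ± 16.8 TPM and Cyp4f16 with 18.3 ± 8.28 TPM (SD, n = 11). Cyp4b1 (15.6 ± 10.1 TPM) and Cyp4v3 (14.3 ± 7.38 TPM) followed, and Cyp4a10 was last with 0.292 ± 0.441 TPM. Cyp4f16, Cyp4b1 and Cyp4v3 did not differ from each other beyond their spread (adjusted p = 0.321 for Cyp4f16 and Cyp4b1, 0.782 for Cyp4b1 and Cyp4v3 and 0.1195 for Cyp4f16 and Cyp4v3, exact permutation tests). Cyp4f14 differed from Cyp4f13, and Cyp4f13 from Cyp4f16 (adjusted p = 0.00178 and 0.0546, exact permutation tests).

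On HFD after 9 weeks the order was Cyp4f14 with 63.8 ± 34.6 TPM, Cyp4f16, Cyp4f13 with 20.35 ± 10.8 TPM, Cyp4a10 with 12.9 ± 11.97 TPM, Cyp4v3 with 12.4 ± 6.80 TPM and Cyp4b1 with 8.72 ± 5.65 TPM (SD, n = 11). Cyp4f16 stood before Cyp4f13 here and after it on RFD, which restates the differences between the diets given above. Cyp4a10 was higher than Cyp4v3 in 4 of 11 libraries and higher than Cyp4b1 in 6. After 22 weeks Cyp4f14 led again, with 213 ± 162 TPM on RFD (n = 11) and 148 ± 40.7 TPM on HFD (n = 12). Cyp4a10 reached 20.6 ± 12.7 TPM on HFD, where it was higher than Cyp4b1 (24.03 ± 15.8 TPM) in 5 of 12 libraries, and stood at 0.280 ± 0.4435 TPM on RFD. On RFD, Cyp4v3 (34.1 ± 13.7 TPM), Cyp4b1 (34.1 ± 20.5 TPM) and Cyp4f16 (32.7 ± 15.85 TPM) followed Cyp4f13 (40.4 ± 9.36 TPM), and neither Cyp4v3 and Cyp4b1 nor Cyp4b1 and Cyp4f16 differed beyond their spread (adjusted p = 0.727 and 0.929, exact permutation tests). On HFD, Cyp4f16 was next to Cyp4f14 with 56.0 ± 20.9 TPM, and Cyp4v3 (35.5 ± 15.3 TPM), Cyp4f13 (32.1 ± 13.9 TPM) and Cyp4b1 did not differ as neighbours (adjusted p = 0.687 and 0.1025, exact permutation tests).

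**Figure D3:**
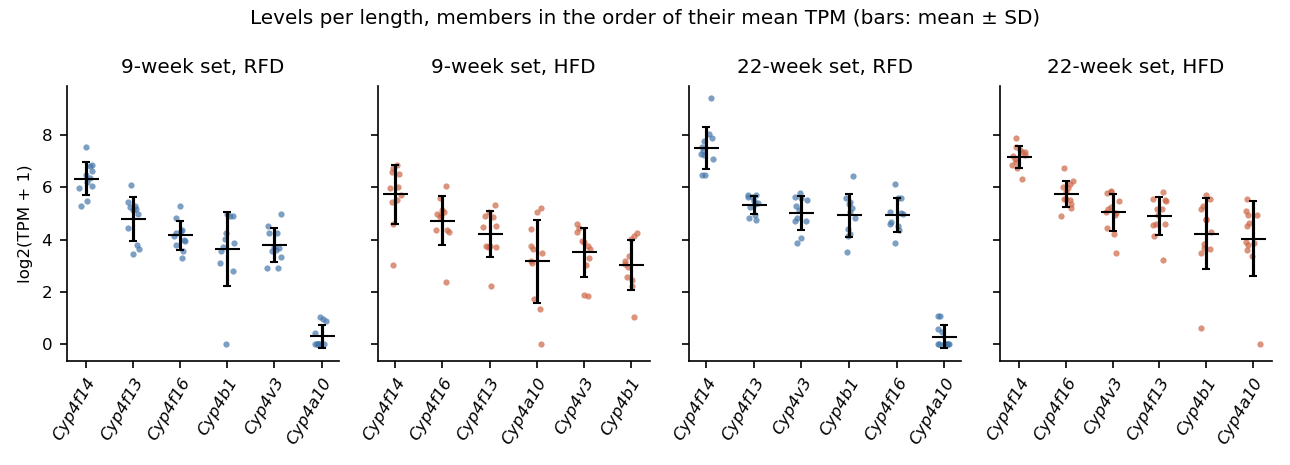
Levels per length as log2(TPM + 1) in each library, with the members of each group in the order of their mean TPM and bars for the mean ± SD of the log2 values. Cyp4f14 is first in all 4 groups, Cyp4a10 is last on RFD, and Cyp4f16 stands before Cyp4f13 on HFD and after it on RFD.

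The 2 sets were then compared with diet as a covariate (quasi-likelihood test of edgeR, adjusted over 14020 genes, 22 against 23 libraries). This contrast is not that of the diets, but the members were chosen with earlier results of these data known. A gene is called where its adjusted p is under 0.1. Of the 6 members, 4 were called and all of these were higher in the 22-week set, against 10.9% of all genes called and 5.98% called higher (4.91% called lower). Cyp4v3 rose from a mean of 68.4 to 139 CPM (log2 fold change 1.02, SE 0.19, adjusted p = 0.000198), and Cyp4f14 from 199.8 to 376 CPM (0.92, SE 0.15, adjusted p = 3.8e-05). Cyp4b1 rose from 25.3 to 49.4 CPM (0.95, SE 0.26, adjusted p = 0.0143) and Cyp4f16 from 55.5 to 84.9 CPM (0.59, SE 0.15, adjusted p = 0.00881). The rise was seen in most mice on both diets. For Cyp4f14, 10 of 11 RFD libraries and 12 of 12 HFD libraries of the 22-week set lay above the 9-week median of their diet, and for Cyp4v3 10 of 11 and 11 of 12. The value of Cyp4f13 (0.17, SE 0.16, adjusted p = 0.5895) did not pass the threshold. Cyp4a10 was not called either, and because it passed the filter through HFD libraries its value (0.23, SE 0.48) is given as a description.

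Enterocyte genes were also higher in the 22-week set. Of the 16 enterocyte markers, 13 were called higher in the 22-week set and none lower, with a median log2 fold change of 1.21 against 0.01 over all genes, whereas 1 of 14 tuft markers was called (median 0.50). With the enterocyte score, the mean log2 level of these markers, as a covariate, no member was called between the sets. Over all genes, 510 were called with this covariate and 1526 without it. The values were then 0.16 (SE 0.18) for Cyp4v3, 0.35 (SE 0.16) for Cyp4f14, -0.09 (SE 0.27) for Cyp4b1 and 0.13 (SE 0.17) for Cyp4f16 on the log2 scale. With the tuft score instead, all 4 calls were kept, at 1.07, 0.92, 0.92 and 0.64, and 1641 of all genes were called. The markers in the enterocyte score differed between the sets themselves, so this covariate and the set cannot be fully told apart. The part of enterocytes in the rises of the members was not tested. With HFD libraries alone all 4 were called again, and with RFD libraries alone none was, while 1300 and 103 of all genes were called. In the same order, the values were 1.11, 0.94, 1.09 and 0.66 with HFD alone and 0.88, 0.84, 0.75 and 0.46 with RFD alone. In the number series, the set differences of mean log2(CPM + 1) were 0.98, 0.15 and 1.94 for Cyp4v3, 0.85, 0.76 and 1.02 for Cyp4f14, 1.05, 0.65 and 1.17 for Cyp4b1 and 0.76, 0.10 and 0.82 for Cyp4f16.

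**Figure D4:**
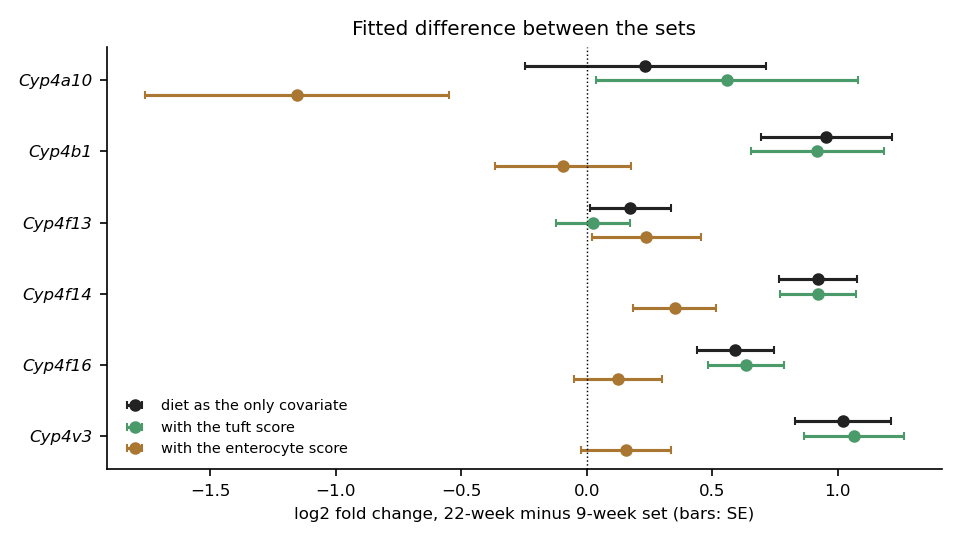
Fitted log2 fold change of the 22-week against the 9-week set for each member, with diet as the only covariate and with the tuft or the enterocyte score added, and bars for the SE. With the enterocyte score the values of Cyp4b1, Cyp4f14, Cyp4f16 and Cyp4v3 move from between 0.59 and 1.02 to between -0.09 and 0.35, and with the tuft score they stay between 0.64 and 1.07.

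Whether a member varied with tuft or with enterocyte genes between mice of the same group was examined next. Levels were centred on the mean of their group of set and diet, so that these relations do not rest on the diet contrast, and tested with 100000 permutations within groups (two-sided, adjusted over 12 relations, 45 libraries). Cyp4v3, Cyp4f14, Cyp4b1 and Cyp4f16 rose with the enterocyte score. Pearson's r was 0.77 for Cyp4v3 (Spearman's rho 0.77), 0.69 for Cyp4f14 (rho 0.72) and 0.65 for Cyp4b1 (rho 0.74), each with an adjusted permutation p of 4e-05 for both measures, which comes from the smallest p that these permutations can give. It was 0.51 for Cyp4f16 (adjusted p = 0.00168, rho 0.49, adjusted p = 0.00228, permutation tests). Without the 2 libraries farthest from the median score, r was 0.70, 0.81, 0.67 and 0.50 in the same order. With HFD libraries alone, an alternative added after the data were seen, the relation of Cyp4f14 was no longer called (r = 0.41, adjusted permutation p = 0.141), and within the 9-week HFD group its r was 0.28. Cyp4a10 had no read in most RFD libraries and passed the filter through HFD libraries, so its relations are given as a description. Its r with the enterocyte score was 0.86 and 0.535 on HFD and 0.40 and 0.105 on RFD, after 9 and 22 weeks.

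The r of Cyp4f13 with the enterocyte score was -0.04 (rho -0.003, adjusted permutation p = 0.808 and 0.996), and it rose with the tuft score, with r = 0.50 (adjusted p = 0.00486) and rho = 0.52 (adjusted p = 0.00194, permutation tests), and r = 0.48 without the 2 farthest libraries. In the number series this relation was uneven, with r of 0.80 in the numbers 1 to 8, 0.32 in the multiples of 10 and 0.03 in the others. With HFD libraries alone it was not called (r = 0.40, adjusted permutation p = 0.141). The r of Cyp4a10 with the tuft score was -0.50 and -0.275 on HFD and -0.20 and -0.135 on RFD, after 9 and 22 weeks. The relations of the other 4 members with the tuft score did not pass the threshold (r from -0.19 to 0.12). The enterocyte relation of Cyp4v3 was 0.32, 0.88 and 0.71 in the 3 series and that of Cyp4b1 0.76, 0.54 and 0.85. That of Cyp4f14 was 0.81, 0.94 and 0.01, that of Cyp4f16 0.58, 0.20 and 0.78 and that of Cyp4a10 0.05, 0.55 and 0.46.

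**Figure D5:**
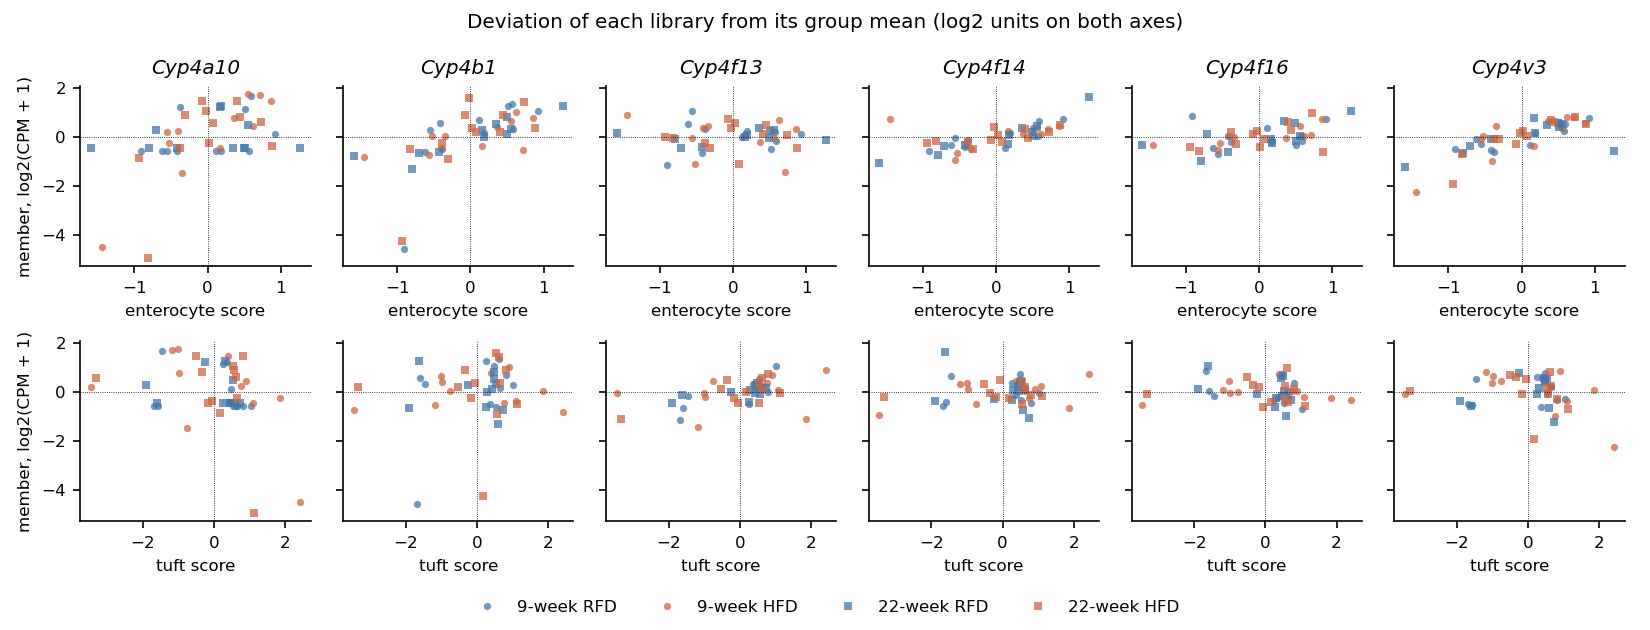
Deviation of each library from the mean of its group for each member, as log2(CPM + 1), against the deviation of the enterocyte score (upper row) and the tuft score (lower row). The points of Cyp4v3, Cyp4f14 and Cyp4b1 climb with the enterocyte score (r from 0.65 to 0.77), and those of Cyp4f13 climb with the tuft score (r = 0.50).

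The genes whose deviations from the group means were most like those of each member were also named, as a description over the same 45 libraries. For Cyp4a10 these were Gstm3 (r = 0.71), Pla2g12b (r = 0.69) and Hadhb (r = 0.67), and for Cyp4v3 Cyp3a25 (r = 0.83), Treh (r = 0.78) and Acsl5 (r = 0.74). For Cyp4b1 they were Cyp2d26 (r = 0.83), Cyp2b10 (r = 0.74) and Cgref1 (r = 0.74). For Cyp4f14 they included the peptidase genes Cndp2 (r = 0.79) and Pepd (r = 0.73). For Cyp4f16 they were Slc7a8 (r = 0.67), Pbld2 (r = 0.63) and Tmem41b (r = 0.63), and for Cyp4f13 Pitpnm1 (r = 0.74), Lnpep (r = 0.70) and Rsbn1 (r = 0.70). Among the members themselves, r was highest between Cyp4b1 and Cyp4v3 (0.58) and between Cyp4a10 and Cyp4v3 (0.57). The 3 Cyp4f members were less alike, with 0.44 for Cyp4f14 and Cyp4f16, 0.18 for Cyp4f13 and Cyp4f14 and -0.06 for Cyp4f13 and Cyp4f16.

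Because Cyp4a10 is a textbook target of PPAR alpha, 18 other targets of this receptor were listed and tested. The list was chosen with earlier results of these data known. It was tested between the diets, the comparison known when Cyp4a10 was chosen, and is therefore no separate support. In each set 7 of the 18 were called higher on HFD and none lower, against 2.0% of all genes called higher and 1.33% lower after 9 weeks (3.32% in either direction) and 0.435% and 0.357% after 22 weeks (0.792% in either direction). The median log2 fold change of the list was 0.85 after 9 weeks and 0.99 after 22 weeks, against -0.05 and -0.03 over all genes. The acyl-CoA thioesterase gene Acot1 rose from 2.35 ± 2.30 to 52.5 ± 29.6 CPM after 9 weeks (SD, n = 11 each, adjusted p = 0.00146, edgeR), and Plin2, of lipid droplets, rose in both sets (log2 fold changes of 0.94 and 1.48). Ppara itself was low, at 5.06 ± 5.68 and 10.7 ± 9.63 CPM after 9 weeks, and its difference did not pass the threshold (adjusted p = 0.491, edgeR).

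Between mice of a group, the members were set against the mean log2 level of these 18 targets, a relation examined after the data were seen, with p-values adjusted over the 6 members. For Cyp4a10 it is again a description, with an r of 0.90 (rho 0.855) on HFD after 9 weeks and 0.79 (rho 0.78) after 22 weeks, and of 0.41 and 0.34 on RFD. Cyp4v3 had an r of 0.58 (adjusted p = 0.00033, rho 0.57, adjusted p = 0.00033) and Cyp4b1 one of 0.37 (adjusted p = 0.0218, rho 0.385, adjusted p = 0.0216, permutation tests). In the 3 series r was 0.565, 0.44 and 0.54 for Cyp4v3 and -0.07, 0.69 and 0.39 for Cyp4b1, and without the 2 libraries under 500000 reads that of Cyp4b1 was 0.24 (adjusted permutation p = 0.226). That of Cyp4f16 differed between choices of libraries. Its r was -0.01 over all libraries (rho 0.33, adjusted permutation p = 0.0537), 0.24 without 22-week RFD mouse 3 and 0.65 in the HFD libraries alone. Cyp4f14 (r = -0.09, and 0.29 without that mouse) and Cyp4f13 (r = 0.02) did not pass the threshold. Neither the enterocyte score nor the tuft score was held constant here, and their part in these relations was not tested.

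The steps around the hydroxylases changed in part. Over all genes, 2.0% were called higher on HFD after 9 weeks, 0.435% on HFD after 22 weeks and 5.98% in the 22-week set. Electrons reach microsomal P450 enzymes through Por and cytochrome b5, and none of the 4 listed donor genes was called between the diets, whereas Por and Cyb5b were called higher in the 22-week set (log2 fold changes of 0.67 and 0.68, adjusted p = 0.00285 and 0.000898, edgeR). Of 8 alcohol and aldehyde dehydrogenases that can oxidise omega-hydroxy fatty acids, none was called after 9 weeks and 2 were called higher after 22 weeks. These were Aldh1a1, a retinal dehydrogenase, which stood at 29.45 ± 16.7 CPM in RFD mice and 146 ± 81.4 CPM in HFD mice (adjusted p = 0.0064), and Aldh9a1, with 221 ± 60.4 and 370.3 ± 77.4 CPM (adjusted p = 0.026, edgeR). Aldh3a2, the fatty aldehyde dehydrogenase, was not called in either set (log2 fold changes of -0.32 and 0.06). Of 11 genes for the peroxisomal oxidation of dicarboxylic acids, 2 were called higher after 9 weeks and 4 after 22 weeks, and none was called lower. Abcd3, the peroxisomal importer of these acids, had log2 fold changes of 0.86 and 0.94 (adjusted p = 0.0721 and 0.0277), and the multifunctional enzyme gene Hsd17b4 of 1.28 and 1.33 (adjusted p = 0.0291 and 0.026, edgeR).

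The Cyp4f enzymes can inactivate products of the eicosanoid genes. Of 15 tested genes of eicosanoid synthesis and inactivation, 1 was called higher after 9 weeks and none after 22 weeks, and none was called lower. Over all genes, 2.0% and 0.435% were called higher at these times. With 1 call among 15, no change of the list as a whole is read from it. The 1 called gene was Ptgr1, an NADPH-dependent reductase that also inactivates leukotriene B4, at 31.98 ± 14.2 CPM in RFD mice and 63.05 ± 27.6 CPM in HFD mice (SD, n = 11 each, adjusted p = 0.0807, edgeR), and after 22 weeks it had 38.5 and 37.3 CPM. Alox5, which starts leukotriene synthesis and is a tuft marker, stood at 775 ± 419 CPM in RFD mice and 363 ± 312 CPM in HFD mice after 9 weeks, which did not pass the threshold (adjusted p = 0.262, edgeR).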

How the data were processed

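Bulk RNA-seq libraries of sorted tuft cells (Smart-seq2 and Nextera XT, paired end) were processed by the authors with Cutadapt 1.15, STAR 2.6.0 and RSEM on GRCm38, per the labels and the methods of the study. The deposited expected counts of RSEM, of which 8.79% of those above 0 were not whole because reads that match several genes are divided, were rounded to whole numbers. The deposited TPM values, which the authors scaled by transcript length and library, were used to compare genes with each other. FPKM tables were not used. In all, 48 columns of per-sample values, 12 in each table, matched no labelled sample and were not used. The study weighed counts by estimated cell type shares before testing. It also removed markers of other cell types and genes it judged not to be expressed in tuft cells. Neither step was repeated here.

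Of 47729 genes, 11557 had no read, 27 that shared a symbol with a gene of more reads were removed, and 14020 had more than 5 reads in at least 6 of 45 libraries. Symbols and positions are those of GENCODE M21, and promoter windows were copied from RefSeq (GRCm38.p6). Counts were normalized with TMM and tested with edgeR 4.0.16 (quasi-likelihood test with robust estimation, R 4.3.3), with Benjamini-Hochberg adjustment over all 14020 genes and adjusted p under 0.1 as the threshold. SE is the log2 fold change divided by the square root of F. Relations and level orders were tested in Python 3.11.15 with permutations, on log2(CPM + 1) or log2(TPM + 1). The members, gene lists and tests were chosen with earlier results of these data known. The text names the 6 members, the other Cyp4 genes, genes called in the lists, and the 3 genes most like each member, and some genes that these rules name are not reported here. Some listed genes are named with values that did not pass the threshold, chosen after their values were seen. Alternatives were DESeq2 1.42.0, limma 3.58.1 on log2(TPM + 1), no filter, batch and marker covariates, and fewer libraries. Each mouse gave 1 library, reads carried no molecular identifiers, so p-values cover the spread between mice, and no libraries held identical values (highest r between libraries 0.930). The study housed several mice per cage, and the labels do not name the cage. A spread between cages was therefore not modelled. The test was also run on simulated data, with 100 genes changed by 1 and 100 by 2 on the log2 scale. It recovered 22 and 56 of these after 9 weeks, 21 and 68 after 22 weeks, and 47 and 86 between the sets. False calls were 18, 8 and 10. Many changes of 1 were thus missed. Each simulated gene varied on its own, so a shared variation of cell types between libraries was not part of this check.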

Additional observations from a re-analysis of the deposited data

How the results depend on the processing

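No paired analysis was possible between the diets because they share no replicate numbers within a set. Between the sets 16 numbers are shared, but same-numbered libraries did not deviate together (r from -0.777 to 0.626, over 0.1 in 5 pairs). With the replicate block, 170 genes were called between the sets, Cyp4f14 kept its call, and Cyp4b1 (0.75), Cyp4f16 (0.58) and Cyp4v3 (0.71) lost theirs, while Cyp4a10 was at -0.21.

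The number of genes called between the diets after 9 weeks (466) became 1534 with DESeq2, 1698 without the filter, 9 with limma on log2(TPM + 1), 19 with the tuft covariate, 1108 with the enterocyte covariate and 290 without libraries under 500000 reads. After 22 weeks (111) it became 351 with DESeq2, 434 without the filter, 51 with limma, 185 with the number series as batch, 171 with the tuft covariate and 241 without RFD mouse 3, an alternative added after the data were seen. Between the sets (1526) it became 2491 with DESeq2, 2399 without the filter, 3091 with limma, 510 with the enterocyte covariate, 299 with both covariates (added later) and 103 with RFD libraries alone. Limma and the missing filter moved the median of all genes between the sets to 0.27 and 0.21. The diet difference of Cyp4a10 was 2.87 and 3.74 with limma, and no member's sign changed between the diets under any alternative except that of Cyp4v3.

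Between the sets, Cyp4a10 was at -0.00246 with DESeq2, -1.16 with the enterocyte covariate, -0.88 with both covariates and -0.56 with RFD alone, and Cyp4f13 at 0.62 with limma (called, adjusted p = 0.0508) and -0.0099 with RFD alone. With the enterocyte covariate Cyp4b1, Cyp4f14, Cyp4f16 and Cyp4v3 were at -0.0933, 0.35, 0.13 and 0.16, with both covariates at -0.19, 0.26, 0.15 and 0.20, and with RFD alone at 0.75, 0.84, 0.46 and 0.88, none called.

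With HFD libraries alone (added later) 4 marker relations were called in place of 7, those of Cyp4a10 counted in both, and r was -0.398 (Cyp4a10 and tuft), 0.399 (Cyp4f13 and tuft) and 0.408 (Cyp4f14 and enterocyte), none called. With the PPAR alpha targets, r was then -0.0783 for Cyp4f13, 0.124 for Cyp4f14 and 0.654 for Cyp4f16. Without libraries under 500000 reads, r was -0.0345 for Cyp4b1 and tuft, and with the PPAR alpha targets 0.243 for Cyp4b1, -0.0455 for Cyp4f13 and 0.0887 for Cyp4f16. Without 22-week RFD mouse 3 it was -0.00463 for Cyp4f13, 0.289 for Cyp4f14 and 0.242 for Cyp4f16. The causes were not tested. In the level order, 49 pairs were called under each of the 2 alternatives, the same count as reported. Pairs of Cyp4a10 are included, so this count too is a description. At these depths Cyp4a10 on RFD, and the Cyp4 genes outside the members, rest on few reads.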

Other observations

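Other genes of fat handling differed between the sets. Of 11 genes for the peroxisomal oxidation of dicarboxylic acids, 5 were called higher in the 22-week set and none lower (edgeR), among them Ehhadh (log2 fold change 1.148, adjusted p = 0.00416). Ephx2, the soluble epoxide hydrolase, was the 1 of 8 tested epoxygenase and epoxide hydrolase genes that was called (1.34, adjusted p = 0.00034), and none of the 8 was called between the diets. Of the 15 eicosanoid genes, Ptgs2 (1.67), Hpgd (0.61) and Dpep1 (1.02) were called higher in the 22-week set. Over all genes, 5.98% were called higher in the 22-week set. The enterocyte markers described above were also higher in that set, and their part in these lists was not tested.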
